A study of Arabidopsis thaliana with 8 samples.

Results

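Rosettes of Arabidopsis thaliana that express the PBL19C3A kinase were compared between a line without functional EDS1, the eds1 line, and a line without functional SID2, the sid2 line. These are 4 of the 8 libraries of the study, 2 for each line, and the comparison asks which transcripts differ when EDS1 rather than SID2 is mutated. The eds1 line is eds1 pbl19 carrying pPBL19:PBL19C3A-GFP-HA, and its labels give a phenotype like wild type. The sid2 line is sid2 pbl19 carrying the same construct, and its labels give constitutive immunity. The other groups are pbl19 with this construct and functional EDS1 and SID2 (the PBL19C3A line, constitutive immunity) and wild type (WT), with 2 libraries each. Plants of all 4 genotypes were Col-0, untreated and 28 days old, and RNA was taken from rosettes. In the eds1 line, a stretch of chromosome 3 held genes without reads that the other genotypes expressed, as described below. In every transgenic line the construct is driven by the PBL19 promoter, with GFP and HA tags on the kinase, in plants whose own PBL19 is mutated. The labels do not give the eds1 and sid2 alleles, the number of plants behind a library, or whether the lines share a transgene insertion. The design text speaks of 1 biological replicate, so p-values measure only the spread between libraries, which may be technical. Total counts were 48470650 and 46840480 in the eds1 line and 51202472 and 47994640 in the sid2 line. Of 18333 genes in any count table, 17397 had counts in both lines and were tested. Another 594 genes were listed for the sid2 line and not for the eds1 line, and 137 the other way round.

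PBL19 belongs to the receptor-like cytoplasmic kinases that pass on signals from pattern receptors at the plasma membrane. EDS1 is a lipase-like protein that forms dimers with PAD4 or SAG101 and links intracellular receptors with a TIR domain to helper receptors, transcription and cell death. SID2 is the isochorismate synthase ICS1, the chloroplast enzyme that makes most of the salicylic acid (SA) of infected leaves. EDS1 and PAD4 raise SA synthesis, but they also feed immune branches that do not run through SA, among them the pathway of N-hydroxypipecolic acid.

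The genes named by the genotypes were read first. PBL19 (AT5G47070) had 65.1 and 37.9 FPKM (fragments scaled to transcript length and library size) in the eds1 line and 626 and 956 FPKM in the sid2 line, against 2197 and 1637 FPKM in the PBL19C3A line and 7.40 and 10.4 FPKM in WT. Both eds1 line libraries lay far below both sid2 line libraries, with a log2 fold change, eds1 line over sid2 line, of -3.93 ± 0.35 (SE) and an edgeR adjusted p of 0.000886. The counts do not separate construct and native transcripts. Because PBL19 transcript differed with the mutation, the mutation and the PBL19 level cannot be told apart in any result that follows. The start of the PBL19 coding sequence is shown because the construct differs from the native gene there. It lies at chr5:19120499-19120528 on the minus strand of TAIR10.1, as RefSeq gives it, and capitals mark the third codon, a cysteine that the C3A change replaces with alanine.
PBL19: atgaacTGTctgttcttgttcaaatcaaag
EDS1 (AT3G48090) had 4.99 and 3.21 FPKM in the eds1 line and 24.3 and 33.9 FPKM in the sid2 line, with 55.7 and 58.4 FPKM in the PBL19C3A line and 8.03 and 13.4 FPKM in WT. Its log2 fold change was -2.80 ± 0.30 (edgeR adjusted p = 0.00214), and the eds1 line was the lowest of the 4 genotypes. The neighbouring copy EDS1B (AT3G48080) was listed at 4.34 and 4.27 FPKM in the sid2 line and was not listed for the eds1 line. EDS1 and EDS1B are near-identical, so reads may be split between them. ICS1 (AT1G74710), the gene of SID2, had 6.37 and 7.89 FPKM in the eds1 line and 5.02 and 4.45 FPKM in the sid2 line. The PBL19C3A line had 72.6 and 57.1 FPKM of ICS1, and WT had 5.81 and 8.78 FPKM. Between the eds1 and sid2 lines ICS1 did not pass the threshold (log2 fold change 0.61 ± 0.22, edgeR adjusted p = 0.144).

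**Figure D1:**
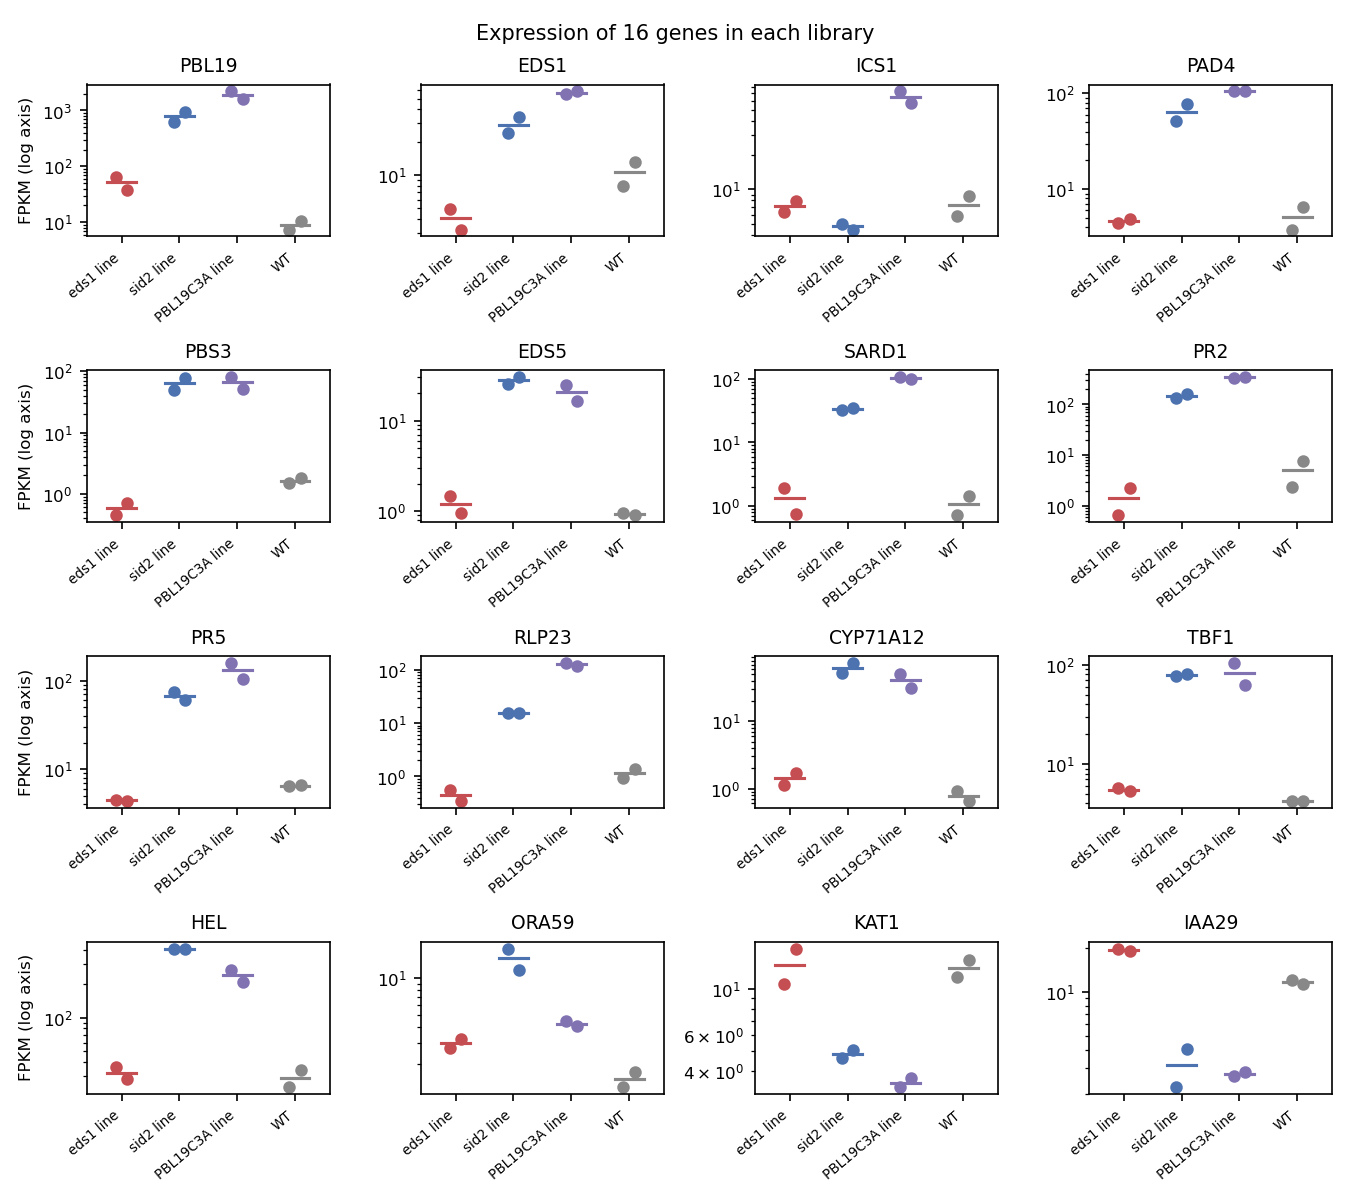
FPKM of 16 genes in each library, on log axes that differ between panels, with the eds1 line, the sid2 line, the PBL19C3A line and WT from left to right. Points are libraries and bars are means of 2 libraries. PAD4, at 4.45 and 4.91 FPKM in the eds1 line and 51.8 and 76.7 FPKM in the sid2 line, shows the lowest levels in the eds1 line and WT, while KAT1 and IAA29 show the opposite order.

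Across all tested genes, 1636 of 17397 (9.4%) passed an adjusted p of 0.05 in edgeR's quasi-likelihood test, 415 (2.39%) higher and 1221 (7.02%) lower in the eds1 line. Changes of at least 2-fold were called for 118 genes (0.678%) in the higher direction and 713 (4.1%) in the lower direction. The median log2 fold change over all tested genes was 0.01. With the eds1 and sid2 line libraries alone in the fit, 129 genes were higher and 719 lower. Single libraries weighed on these counts. Without eds1 line library 2 the test called 629 genes, without sid2 line library 1 it called 617, and without sid2 line library 2 it called 985. A core of 485 genes, 38 higher and 447 lower, was called with all libraries and in each of the 8 fits without 1 library. The first principal component over genes, with 70.9% of the variance, placed the eds1 line at -33.73 and -48.95 and the sid2 line at 35.52 and 25.71. The PBL19C3A line lay at 62.04 and 53.67 and WT at -51.74 and -42.52, so the eds1 line stood beside WT and the sid2 line between WT and the PBL19C3A line. Each table lists only genes that reach 1 CPM, a count divided by its library's size, in 2 or more of the 4 libraries it joins, WT included. A gene high in the sid2 line but low in both the eds1 line and WT was therefore not tested, and it is described below by its values alone. RNA came from whole rosettes, in which fewer cells of a type and less RNA per cell cannot be told apart.

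Promoters of genes that were lower in the eds1 line were read for the W-box, the element bound by WRKY transcription factors. The window was the 250 bases before the gene start in TAIR10.1, as annotated by RefSeq, and the core TTGAC was searched on both strands. It was present in 54.6% of 1208 genes called lower and in 38.5% of 408 genes called higher in the eds1 line, against 44.3% of the 17087 tested genes with a window. At least 2 cores stood in 20.9% of the genes called lower (252 genes), in 41 of the 408 called higher and in 13.8% of all. The core TGACG of the as-1 element, which can overlap a W-box, was present in 22.6%, 17.2% and 19.4% of the same groups. GCCGCC, the core of the GCC box bound by ethylene response factors, was present in 2.24%, 0.49% and 2.0%. These are matches of letters, not binding sites. Windows of 4 genes called lower, with roles in SA synthesis, camalexin synthesis, pattern perception and N-hydroxypipecolic acid synthesis, are shown with every W-box core in capitals on either strand (TTGAC or GTCAA).
SARD1 (chr1:27749249-27749498, minus strand): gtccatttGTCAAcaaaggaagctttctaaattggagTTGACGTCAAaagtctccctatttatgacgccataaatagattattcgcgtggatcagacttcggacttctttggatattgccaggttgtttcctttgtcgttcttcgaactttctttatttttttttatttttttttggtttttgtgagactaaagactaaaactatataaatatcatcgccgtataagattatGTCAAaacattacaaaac
CYP71A12 (chr2:13101372-13101621, minus strand): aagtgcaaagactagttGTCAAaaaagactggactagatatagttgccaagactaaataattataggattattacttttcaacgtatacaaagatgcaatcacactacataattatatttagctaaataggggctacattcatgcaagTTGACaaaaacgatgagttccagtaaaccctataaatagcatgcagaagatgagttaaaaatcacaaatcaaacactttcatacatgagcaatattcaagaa
RLP23 (chr2:13862615-13862864, minus strand): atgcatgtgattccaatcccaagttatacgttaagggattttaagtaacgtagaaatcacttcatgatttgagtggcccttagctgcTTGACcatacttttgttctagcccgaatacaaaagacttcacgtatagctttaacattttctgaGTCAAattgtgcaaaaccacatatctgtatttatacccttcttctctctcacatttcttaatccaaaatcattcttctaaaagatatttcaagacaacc
SARD4 (chr5:21399081-21399330, plus strand): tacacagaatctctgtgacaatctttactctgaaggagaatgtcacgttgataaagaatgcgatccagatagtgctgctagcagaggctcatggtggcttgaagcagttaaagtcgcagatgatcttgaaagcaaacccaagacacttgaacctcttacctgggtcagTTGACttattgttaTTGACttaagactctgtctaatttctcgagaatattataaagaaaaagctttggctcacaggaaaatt
The SARD1 window held 4 cores, 2 of them joined as a palindrome that also holds TGACG on both strands, and the other windows held 2 each. The windows of PBS3, PR2 and PAD4, which were also lower in the eds1 line, held none of these letters.

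In the list of SA synthesis and turnover, 5 of 12 tested members were called, all lower in the eds1 line, beside 7.02% of all tested genes called lower. This share, and 2.39% called higher, stand beside the counts of each list that follows. The SA synthesis list had a median log2 fold change of -0.64 over the 12 beside 0.01 over all tested genes. PBS3 (AT5G13320), which conjugates isochorismate to glutamate in the step after ICS1, had 0.448 and 0.717 FPKM in the eds1 line and 50.6 and 79.5 FPKM in the sid2 line. The PBL19C3A line had 80.6 and 51.5 FPKM of PBS3 and WT 1.496 and 1.803 FPKM. Its libraries in the sid2 and PBL19C3A lines overlapped, and the eds1 line lay below WT, with a log2 fold change of -6.77 ± 0.39 against the sid2 line (edgeR adjusted p = 0.000201). EDS5 (AT4G39030), the exporter of isochorismate from the chloroplast, had 1.47 and 0.953 FPKM in the eds1 line and 25.4 and 30.3 FPKM in the sid2 line (-4.50 ± 0.27, edgeR adjusted p = 0.000236). SARD1 (AT1G73805), a transcription factor that binds the ICS1 promoter, had 1.95 and 0.744 FPKM in the eds1 line, 32.8 and 35.3 FPKM in the sid2 line and 106 and 101 FPKM in the PBL19C3A line. For SARD1 the sid2 line stood between the eds1 line and the PBL19C3A line, and the change was -4.64 ± 0.44 (edgeR adjusted p = 0.0012). DMR6 (AT5G24530), an SA hydroxylase, had 24.4 and 9.99 FPKM in the eds1 line and 128 and 103 FPKM in the sid2 line. It too stood between, since the PBL19C3A line had 424 and 410.2 FPKM. CBP60g, a close relative of SARD1 with a like role, was the fifth called member, with 18.6 and 6.83 FPKM in the eds1 line and 62.7 and 76.0 FPKM in the sid2 line (-2.44 ± 0.55, edgeR adjusted p = 0.0358). This call was lost without eds1 line library 2 or any 1 of the sid2 and PBL19C3A line libraries (-3.30 to -1.91). The SA hydroxylase gene DLO1 was listed for the sid2 line alone of these lines, at 8.57 and 7.77 FPKM, with 55.6 and 75.3 FPKM in the PBL19C3A line.

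In the SA response list 7 of 12 tested members were called, all lower in the eds1 line (median log2 fold change -1.30), and 3 to 9 were called in the fits without 1 library. PR2 (AT3G57260), a beta-1,3-glucanase, had 0.649 and 2.26 FPKM in the eds1 line, 131 and 158 FPKM in the sid2 line, 337 and 346 FPKM in the PBL19C3A line and 2.39 and 7.59 FPKM in WT. The log2 fold change of PR2 was -6.62 ± 0.73 (edgeR adjusted p = 0.0023). PR5 (AT1G75040), a thaumatin-like protein, had 4.50 and 4.37 FPKM in the eds1 line and 74.3 and 60.1 FPKM in the sid2 line (-3.90 ± 0.22, edgeR adjusted p = 0.000186). PR5 lies among the 50 tested genes on either side of ICS1, and so does GSTU10 below. PR1 (AT2G14610), the common marker of SA response, was listed for the sid2 line at 46.9 and 64.2 FPKM and not for the eds1 line. The PBL19C3A line had 2889 and 1247 FPKM of PR1, and WT had 1.12 and 0.651 FPKM, so both sid2 line libraries lay between. WRKY50, a WRKY factor, had 2.60 and 1.52 FPKM in the eds1 line and 8.35 and 11.0 FPKM in the sid2 line (-2.20 ± 0.28, edgeR adjusted p = 0.00461). The SA receptor gene NPR1 had 17.3 FPKM in both libraries of the eds1 line and 31.4 and 32.3 FPKM in the sid2 line (-0.86 ± 0.16, edgeR adjusted p = 0.0166). This call was lost without any 1 of the eds1 or sid2 line libraries, with log2 fold changes between -0.89 and -0.84 over the fits. WRKY70 had 29.2 and 22.2 FPKM in the eds1 line and 73.8 and 103 FPKM in the sid2 line, and it did not pass (-1.76 ± 0.46, edgeR adjusted p = 0.0571). WRKY70 did pass in DESeq2 (-1.76, adjusted p = 0.000325). It also passed in edgeR without either WT library and with the eds1 and sid2 line libraries alone (-1.98 to -1.50 over the fits without 1 library).

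The list of N-hydroxypipecolic acid, a mobile signal, and of systemic resistance had 3 of 5 tested members called, all lower in the eds1 line (median log2 fold change -2.65). They were SARD4, of the synthesis of this acid, and AZI1 and EARLI1, which are no enzymes of it. Another 3 were listed for the sid2 line and not for the eds1 line. FMO1 (AT1G19250), the monooxygenase of the last step, was listed at 149 and 223 FPKM in the sid2 line, above 78.7 and 34.4 FPKM in the PBL19C3A line, with 0 and 0.0523 FPKM in WT. It was not listed for the eds1 line. ALD1, the aminotransferase of the first step, was likewise listed for the sid2 line at 23.8 and 25.8 FPKM, with 14.2 and 11.2 FPKM in the PBL19C3A line and 0 and 0.242 FPKM in WT. SARD4 (AT5G52810), the reductase between them, had 1.76 and 1.88 FPKM in the eds1 line, 17.6 and 23.0 FPKM in the sid2 line and 2.11 and 2.93 FPKM in WT. It was called lower in the eds1 line (-3.45 ± 0.22, edgeR adjusted p = 0.000252). UGT76B1, which glucosylates the signal, was listed for the sid2 line at 2.51 and 4.59 FPKM and reached 35.8 and 26.0 FPKM in the PBL19C3A line. AZI1, a lipid transfer protein of systemic resistance, had 4.67 and 5.18 FPKM in the eds1 line, 47.5 and 15.2 FPKM in the sid2 line and 8.05 and 7.79 FPKM in the PBL19C3A line (-2.65 ± 0.47, edgeR adjusted p = 0.0154). Its relative EARLI1 had 4.56 and 1.76 FPKM in the eds1 line, 27.9 and 23.1 FPKM in the sid2 line and 6.39 and 12.8 FPKM in the PBL19C3A line (-3.00 ± 0.49, edgeR adjusted p = 0.011). For both genes the sid2 line was the highest of the 4 genotypes. The AZI1 call was lost without either eds1 line library (-3.25 to -1.60 over the fits), and the EARLI1 call without sid2 line library 1 (-3.81 to -2.49).

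Of 8 tested genes for EDS1, its partners and the helper receptors, 5 were called, all lower (median log2 fold change -1.02). The 5 include EDS1 itself, the gene mutated in the eds1 line. PAD4 (AT3G52430), the partner of EDS1 in basal resistance, had 4.45 and 4.91 FPKM in the eds1 line, 51.8 and 76.7 FPKM in the sid2 line, 105 FPKM in both PBL19C3A libraries and 3.79 and 6.45 FPKM in WT. Its log2 fold change was -3.76 ± 0.29 (edgeR adjusted p = 0.000508). SAG101, the partner in TIR receptor cell death, had 7.86 and 6.34 FPKM in the eds1 line and 15.5 and 15.4 FPKM in the sid2 line (-1.13 ± 0.16, edgeR adjusted p = 0.00712). That call was lost without eds1 line library 2, over a range of -1.28 to -0.99. Among the helper receptors, ADR1 had 3.98 and 3.47 FPKM in the eds1 line and 7.44 and 8.60 FPKM in the sid2 line, a call lost without any 1 of these 4 libraries (-1.19 to -0.98). NRG1.2 was called too, at 3.69 and 3.30 FPKM in the eds1 line and 6.88 and 6.84 FPKM in the sid2 line (-0.95 ± 0.11, edgeR adjusted p = 0.00303).

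**Figure D2:**
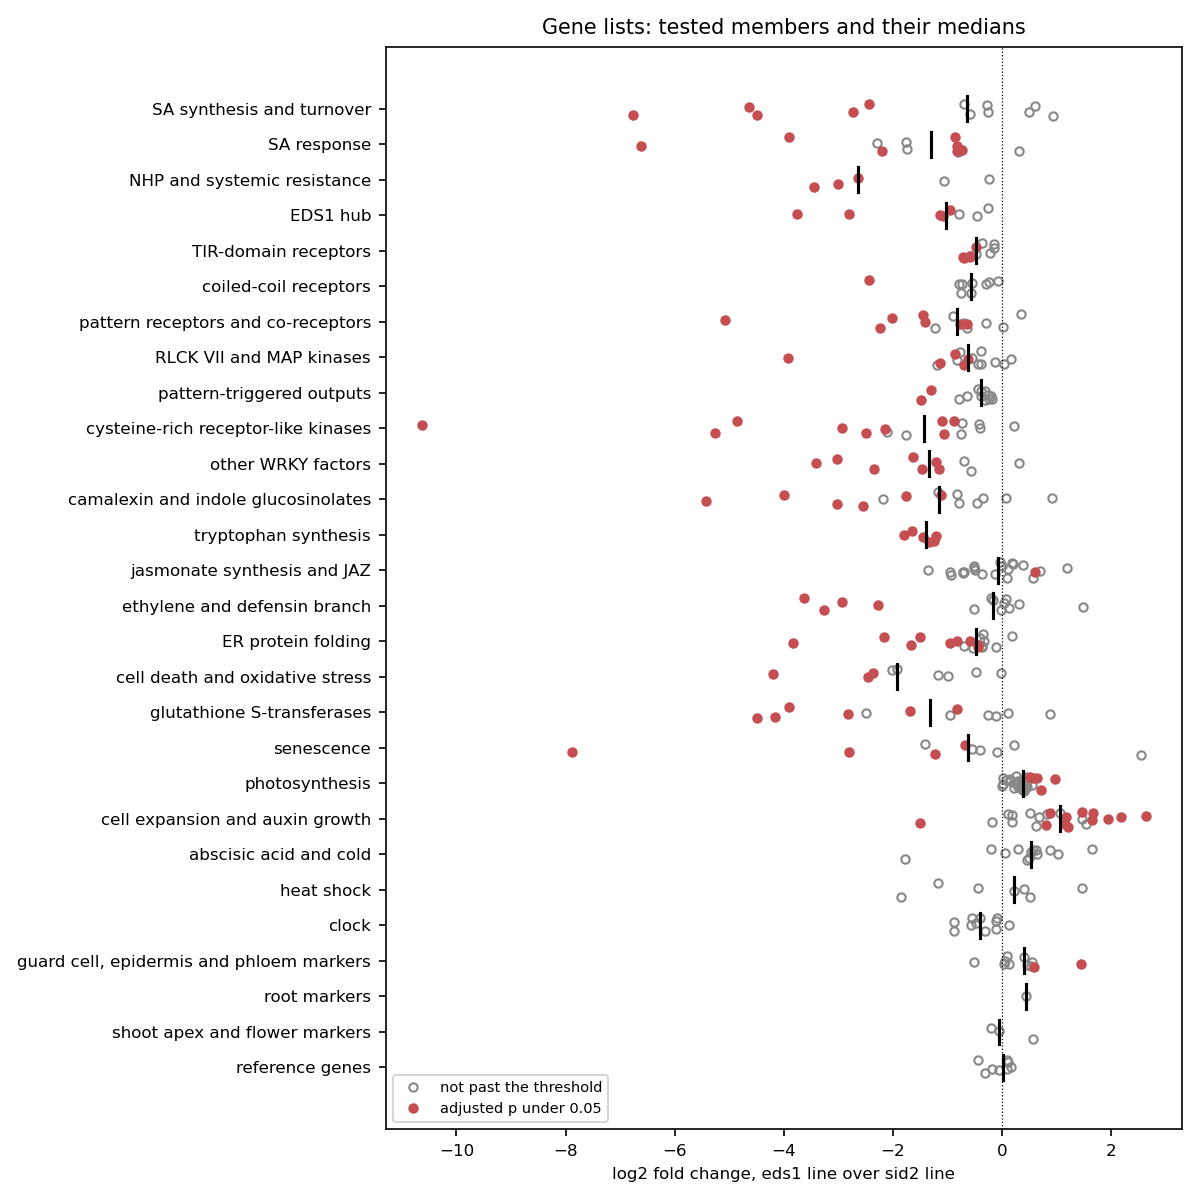
Log2 fold change, eds1 line over sid2 line, of each tested gene in 28 gene lists, with filled points at an adjusted p under 0.05 and a bar at each list's median. The filled points of the SA, EDS1 and pattern receptor lists lie left of 0, the farthest left of all is CRK4 with 0 and 2 counts in the eds1 line, and the 5 filled points of photosynthesis and 11 of 12 of cell expansion lie right of 0.

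Called intracellular receptors showed small differences, apart from RPP13 (log2 fold change -2.45 ± 0.16, edgeR adjusted p = 0.000275). Of 11 tested TIR-domain receptors, which signal through EDS1, 5 were called lower (median log2 fold change -0.48), and 0 to 3 in the fits without 1 library. RPP4 had 30.4 and 28.6 FPKM in the eds1 line and 51.2 and 45.6 FPKM in the sid2 line (-0.70 ± 0.11, edgeR adjusted p = 0.00862). SNC1, its neighbour in a cluster of similar genes, had 62.0 and 58.9 FPKM in the eds1 line and 94.6 and 89.4 FPKM in the sid2 line (-0.59 ± 0.14, edgeR adjusted p = 0.0393). RPS4 had 9.64 and 9.16 FPKM in the eds1 line and 16.8 and 14.5 FPKM in the sid2 line. DSC1 had 3.88 and 4.40 FPKM in the eds1 line and 6.53 and 6.05 FPKM in the sid2 line, a call lost in every fit without 1 library (-0.70 to -0.47). The RPP4 call was lost without eds1 line library 2 or sid2 line library 1 (-0.78 to -0.61), the SNC1 call without any 1 of the eds1 or sid2 line libraries (-0.63 to -0.55), and the RPS4 call without either eds1 line library or sid2 line library 1 (-0.82 to -0.61). Of 9 coiled-coil receptors, RPP13 alone was called. RPP13 (AT3G46530), a receptor for downy mildew, had 5.93 and 5.64 FPKM in the eds1 line, 31.5 and 32.4 FPKM in the sid2 line, 30.4 and 33.7 FPKM in the PBL19C3A line and 20.5 and 28.1 FPKM in WT. The eds1 line was thus below WT, and RPP13 lies in the stretch of chromosome 3 described below.

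Cell-surface pattern receptors were lower in the eds1 line for 7 of 14 tested members (median log2 fold change -0.83, 3 to 8 called in the fits without 1 library). RLP23 (AT2G32680), the receptor of the nlp20 peptide, had 0.558 and 0.346 FPKM in the eds1 line, 15.7 FPKM in both sid2 line libraries, 135 and 119 FPKM in the PBL19C3A line and 0.941 and 1.37 FPKM in WT. RLP23 was called at -5.08 ± 0.25 (edgeR adjusted p = 0.000129), and the sid2 line stayed well below the PBL19C3A line. SOBIR1, the co-receptor kinase of RLP23, had 55.6 and 44.1 FPKM in the eds1 line, 144 and 131 FPKM in the sid2 line and 404 and 426 FPKM in the PBL19C3A line (-1.45 ± 0.33, edgeR adjusted p = 0.0361). RLP30, another receptor-like protein, had 1.14 and 0.583 FPKM in the eds1 line and 3.91 and 4.28 FPKM in the sid2 line (-2.23 ± 0.31, edgeR adjusted p = 0.00591). EFR, the receptor of bacterial EF-Tu, had 0.912 and 0.676 FPKM in the eds1 line and 4.25 and 2.29 FPKM in the sid2 line. FLS2, the flagellin receptor, had 16.3 and 11.6 FPKM in the eds1 line and 15.1 and 7.12 FPKM in the sid2 line, which did not pass (0.34 ± 0.33, edgeR adjusted p = 0.573) and was at -0.10 without sid2 line library 2. The SOBIR1 call was lost without any 1 of the eds1, sid2 or PBL19C3A line libraries (-1.60 to -1.32). The EFR call was lost without either eds1 line library or sid2 line library 1 (-2.40 to -1.51).

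Downstream of the receptors, 5 of 15 cytoplasmic and MAP kinases and 2 of 13 pattern-triggered outputs were called, all lower, beside 7.02% of all tested genes called lower. With the eds1 and sid2 line libraries alone in the fit, 1 kinase and 0 outputs were called. In the fits without 1 library 1 to 4 of the kinases and 0 to 2 of the outputs were called. The 5 kinases include PBL19 itself. Its relative PBL39 had 9.59 and 7.16 FPKM in the eds1 line and 22.03 and 15.17 FPKM in the sid2 line, and PBL37 had 6.71 and 6.28 FPKM in the eds1 line and 13.1 and 10.8 FPKM in the sid2 line. Both calls were lost without either eds1 line library or sid2 line library 1, and PBL39 also without either PBL19C3A library (PBL39 -1.37 to -0.84, PBL37 -0.99 to -0.71). The MAP kinase gene MPK11 was listed for the sid2 line at 12.9 and 11.2 FPKM and not for the eds1 line. RBOHD, the oxidase of the immune oxidative burst, had 17.43 and 10.75 FPKM in the eds1 line and 50.7 and 28.7 FPKM in the sid2 line (-1.48 ± 0.34, edgeR adjusted p = 0.0361). That call was lost without eds1 line library 2, sid2 line library 1 or either PBL19C3A library (-1.84 to -1.02). PEN3, a transporter of antimicrobial compounds, had 173 and 102 FPKM in the eds1 line and 433 and 254 FPKM in the sid2 line, just past the threshold (-1.31 ± 0.33), and it was lost in the fits without eds1 line library 2, sid2 line library 1 or any 1 of the PBL19C3A and WT libraries (-1.71 to -0.87). NHL10, a common marker of pattern responses, was listed for the sid2 line at 35.5 and 31.2 FPKM, with 34.0 and 14.8 FPKM in the PBL19C3A line and 0.0944 and 0.414 FPKM in WT. WRKY33 differed more within a line than between lines, with 134 and 20.7 FPKM in the eds1 line and 119 and 83.2 FPKM in the sid2 line (-0.39 ± 0.74, edgeR adjusted p = 0.796), and it was at 0.39 without eds1 line library 2. WRKY53 had 26.2 and 0.833 FPKM in the eds1 line and 17.1 and 4.55 FPKM in the sid2 line, library 1 being the higher in both lines. Its log2 fold change of 0.32 ± 1.16 (edgeR adjusted p = 0.897) turned to -3.65 without eds1 line library 1 (edgeR adjusted p = 0.0487) and to -0.34 without sid2 line library 2.

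Cysteine-rich receptor-like kinases (CRKs), a family of SA- and pathogen-responsive surface kinases, formed the list with the most members listed for the sid2 line and not for the eds1 line. Of 26 members, 16 were tested and 9 called, all lower (median log2 fold change -1.44), and the other 10 were listed for the sid2 line and not for the eds1 line. CRK45 had 1.03 and 0.439 FPKM in the eds1 line, 22.7 and 25.5 FPKM in the sid2 line and 80.7 and 85.6 FPKM in the PBL19C3A line (-4.85 ± 0.54, edgeR adjusted p = 0.00249). CRK13 had 0.277 and 0.514 FPKM in the eds1 line, 11.99 and 19.23 FPKM in the sid2 line and 15.99 and 12.93 FPKM in the PBL19C3A line (-5.26 ± 0.62, edgeR adjusted p = 0.00316). For CRK13 the sid2 and PBL19C3A lines overlapped, and for CRK45 they did not. Of the 10 untested members CRK36 had the highest level, with 11.6 and 17.0 FPKM in the sid2 line and 0.308 and 0.441 FPKM in WT. CRK4 (AT3G45860) had 0 and 2 counts in the eds1 line against 1652 and 2123 in the sid2 line, and 537 and 694 in WT. Per total count this was 1814-fold lower, with an exact 95% interval of 502 to 14981 that covers counting error only. CRK4 lies in the chromosome 3 stretch described below.

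WRKY transcription factors outside the SA response list were called lower in 7 of 10 tested members (median log2 fold change -1.34). WRKY45, a regulator of phosphate uptake, had 1.91 and 1.33 FPKM in the eds1 line, 20.5 and 14.9 FPKM in the sid2 line and 1.32 and 1.59 FPKM in WT (-3.42 ± 0.28, edgeR adjusted p = 0.000618). WRKY6, a factor of senescence and defence, had 3.12 and 2.25 FPKM in the eds1 line and 21.7 and 22.8 FPKM in the sid2 line (-3.03 ± 0.21, edgeR adjusted p = 0.000347). WRKY60 had 0.972 and 1.42 FPKM in the eds1 line and 6.55 and 6.01 FPKM in the sid2 line (-2.35 ± 0.34, edgeR adjusted p = 0.00714). In all 3 genes the eds1 line libraries overlapped those of WT. WRKY75, a positive regulator of senescence, was listed for the sid2 line at 43.9 and 51.6 FPKM and for WT at 0.277 and 0.329 FPKM, and was not listed for the eds1 line.

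The route from tryptophan to camalexin, the main antimicrobial indole of Arabidopsis, was lower in the eds1 line at several steps. All 6 tested genes of tryptophan synthesis were called lower (median log2 fold change -1.39), with 4 to 6 called in the fits without 1 library, and so were 6 of 14 genes of camalexin and indole glucosinolates (median -1.15). Anthranilate synthase ASA1, the entry step, had 22.9 and 16.9 FPKM in the eds1 line, 65.9 and 59.9 FPKM in the sid2 line, 78.0 and 58.5 FPKM in the PBL19C3A line and 18.86 and 18.18 FPKM in WT (-1.64 ± 0.18, edgeR adjusted p = 0.00204). TSA1, the alpha subunit of tryptophan synthase, had 15.01 and 16.01 FPKM in the eds1 line and 56.1 and 53.1 FPKM in the sid2 line (-1.80 ± 0.15, edgeR adjusted p = 0.000726). In both genes the eds1 line was near WT and the sid2 line was far above it. CYP79B2 (AT4G39950), which turns tryptophan into indole-3-acetaldoxime, had 4.98 and 4.15 FPKM in the eds1 line and 36.7 and 38.8 FPKM in the sid2 line (-3.03 ± 0.30, edgeR adjusted p = 0.00156). CYP71A12 (AT2G30750), which acts on that oxime, had 1.15 and 1.72 FPKM in the eds1 line, 51.8 and 73.9 FPKM in the sid2 line and 50.8 and 31.2 FPKM in the PBL19C3A line. It was called at -5.43 ± 0.36 (edgeR adjusted p = 0.000316), with both sid2 line libraries above both of the PBL19C3A line. Its close copy CYP71A13 and PAD3, the last enzyme of camalexin synthesis, were listed for the sid2 line at 45.9 and 25.4 FPKM and at 34.5 and 31.2 FPKM, and neither was listed for the eds1 line. Reads of CYP71A12 and CYP71A13 may be shared.

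In the jasmonate list 1 gene was called, and the called ethylene and defensin genes were lower. Of 22 tested genes of jasmonate synthesis and the JAZ repressors, AOS alone was called, and it was higher (median log2 fold change -0.08). Beside this, 9.4% of all tested genes were called, 2.39% higher. AOS, the allene oxide synthase, had 77.9 and 85.1 FPKM in the eds1 line, 51.6 and 57.6 FPKM in the sid2 line, 22.8 and 22.6 FPKM in the PBL19C3A line and 78.9 and 74.5 FPKM in WT (0.60 ± 0.11, edgeR adjusted p = 0.0167). That call was lost without eds1 line library 2 or sid2 line library 1 (0.50 to 0.68). In the ethylene and defensin list 4 of 13 tested genes were called, all lower, and 7 more were listed for the sid2 line and not for the eds1 line. The median log2 fold change of the 13 was -0.17, with 8 below 0 and a highest value of 1.48. DESeq2 called 4 of them lower and 1 higher. ORA59 (AT1G06160), the factor that joins ethylene and jasmonate signals, had 2.69 and 3.20 FPKM in the eds1 line, 17.3 and 11.5 FPKM in the sid2 line, 4.47 and 4.06 FPKM in the PBL19C3A line and 1.31 and 1.73 FPKM in WT (-2.27 ± 0.26, edgeR adjusted p = 0.00286). The basic chitinase CHI-B showed the same order, with 3.33 and 2.96 FPKM in the eds1 line, 31.3 and 17.8 FPKM in the sid2 line and 12.3 and 8.41 FPKM in the PBL19C3A line. HEL (AT3G04720), the hevein-like PR4, had 36.2 and 28.5 FPKM in the eds1 line and 407 and 408 FPKM in the sid2 line, with 265 and 207 FPKM in the PBL19C3A line (-3.64 ± 0.21, edgeR adjusted p = 0.000197). For ORA59, CHI-B and HEL the sid2 line was the highest of the 4 genotypes. The defensin PDF1.2A was listed for the sid2 line at 726 and 155 FPKM, against 7.76 and 5.78 FPKM in the PBL19C3A line and 0.486 and 0.364 FPKM in WT. PDF1.3 had 474 and 101 FPKM and PDF1.2C 392 and 50.7 FPKM in the sid2 line. These defensins are near-identical copies, so reads may be shared, and library 1 of the sid2 line was several times library 2 in each.

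Folding helpers of the endoplasmic reticulum, through which secreted defence proteins and surface receptors pass, were called lower in 9 of 18 tested members (median log2 fold change -0.48, 6 or 7 called in the fits without 1 library). TBF1 (AT4G36990), a heat-shock-type factor that drives the secretory switch from growth to defence, had 5.69 and 5.30 FPKM in the eds1 line, 76.6 and 81.4 FPKM in the sid2 line, 105 and 62.3 FPKM in the PBL19C3A line and 4.24 and 4.23 FPKM in WT. It was called at -3.83 ± 0.23 (edgeR adjusted p = 0.000238), with the sid2 line inside the range of the PBL19C3A line. CRT3 (AT1G08450), a calreticulin needed for EFR to fold, had 32.4 and 29.9 FPKM in the eds1 line, 82.5 and 96.1 FPKM in the sid2 line, 307 and 296 FPKM in the PBL19C3A line and 37.9 and 38.4 FPKM in WT (-1.50 ± 0.11, edgeR adjusted p = 0.000419). The disulfide isomerase PDIL1-2 had 8.836 and 10.11 FPKM in the eds1 line and 30.9 and 30.3 FPKM in the sid2 line (-1.67 ± 0.15, edgeR adjusted p = 0.00105).

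Of the senescence list 4 of 10 tested members were called, of the cell death and oxidative stress list 3 of 9, and of the glutathione S-transferases 6 of 12, all lower in the eds1 line. Other members did not pass, among them SAG29 at 1.04 and 1.85 FPKM in the eds1 line and 0.294 and 0.199 FPKM in the sid2 line (2.54 ± 0.96, edgeR adjusted p = 0.151). SAG29 did pass in edgeR without either PBL19C3A library, and in DESeq2 (2.56, adjusted p = 0.0325). DESeq2 called 1 senescence gene and 1 glutathione S-transferase higher. SAG13 (AT2G29350), a short-chain reductase induced in senescing and infected leaves, had 0.595 and 0.803 FPKM in the eds1 line, 131 and 219.6 FPKM in the sid2 line, 200.4 and 84.1 FPKM in the PBL19C3A line and 0.287 and 1.49 FPKM in WT. The log2 fold change of SAG13 was -7.89 ± 0.78 (edgeR adjusted p = 0.00146). The chitinase CHI (AT2G43570) had 2.70 and 1.74 FPKM in the eds1 line, 373 and 484 FPKM in the sid2 line, 527 and 358 FPKM in the PBL19C3A line and 2.47 and 4.77 FPKM in WT (-7.56 ± 0.43, edgeR adjusted p = 0.000197). For both genes the sid2 line overlapped the PBL19C3A line, and the eds1 line overlapped WT. Another 7 glutathione S-transferases were listed for the sid2 line and not for the eds1 line. GSTU10 (AT1G74590) had 2.13 and 2.60 FPKM in the eds1 line, 36.3 and 36.0 FPKM in the sid2 line, 32.1 and 34.6 FPKM in the PBL19C3A line and 1.98 and 2.43 FPKM in WT (-3.91 ± 0.17, edgeR adjusted p = 8.51e-05). GSTF2, which has a close copy in GSTF3, had 187 and 161 FPKM in the eds1 line and 1266 and 1212 FPKM in the sid2 line (-2.81 ± 0.25, edgeR adjusted p = 0.000886). PRX34 (AT3G49120), a cell wall peroxidase of the oxidative burst, had 33.8 and 24.2 FPKM in the eds1 line and 477 and 593 FPKM in the sid2 line (-4.19 ± 0.31, edgeR adjusted p = 0.000421). PPH, a chlorophyll-degrading esterase, had 36.5 and 35.7 FPKM in the eds1 line and 61.9 and 55.7 FPKM in the sid2 line (-0.68 ± 0.10, edgeR adjusted p = 0.00663).

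Of 23 tested genes of cell expansion and auxin growth 11 were called higher in the eds1 line and 1, XTH24, lower, beside 2.39% of all tested genes called higher (median log2 fold change 1.06, 5 to 12 called in the fits without 1 library). IAA29 (AT4G32280), an auxin-response repressor, had 19.8 and 18.9 FPKM in the eds1 line, 2.22 and 4.06 FPKM in the sid2 line, 2.62 and 2.83 FPKM in the PBL19C3A line and 12.05 and 11.23 FPKM in WT (2.64 ± 0.27, edgeR adjusted p = 0.00175). Both eds1 line libraries were above both WT libraries, and the sid2 line overlapped the PBL19C3A line. SAUR23 (AT5G18060), a small auxin-up RNA that promotes cell expansion, had 11.7 and 11.4 FPKM in the eds1 line, 3.39 and 3.92 FPKM in the sid2 line and 11.999 and 9.790 FPKM in WT (1.67 ± 0.21, edgeR adjusted p = 0.0042). PRE1, a growth-promoting helix-loop-helix protein, had 11.4 and 8.99 FPKM in the eds1 line and 1.52 and 3.03 FPKM in the sid2 line, a call lost without either eds1 line library or sid2 line library 1 (1.76 to 2.74). The summed level of the list was 1813 and 2366 FPKM in the eds1 line and 2619 and 2408 FPKM in the sid2 line, so it ran against the direction of most calls. XTH24, a xyloglucan endotransglucosylase, had 467 and 440.3 FPKM in the eds1 line and 1505 and 1097 FPKM in the sid2 line (-1.50 ± 0.18, edgeR adjusted p = 0.00336). XTH24 made up much of the sum in the sid2 line, and its difference between the lines was larger than that of the sum.

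Nuclear photosynthesis genes were called higher for 5 of 32 members, all of the light-harvesting antenna, with a median log2 fold change of 0.38. Beside this, 2.39% of all tested genes were called higher. DESeq2 called 16 of the 32 higher and 0 lower, beside 852 genes higher over the whole comparison. With the eds1 and sid2 line libraries alone in the edgeR fit, 1 was called. Of the 32 log2 fold changes 0 lay below 0. The summed level of the list was 123952 and 134947 FPKM in the eds1 line and 98838 and 102150.2 FPKM in the sid2 line. LHCB1.4 (AT2G34430) had 4723 and 4684 FPKM in the eds1 line, 2263 and 2571 FPKM in the sid2 line, 1870.3 and 1922 FPKM in the PBL19C3A line and 5448 and 4576 FPKM in WT (0.98 ± 0.13, edgeR adjusted p = 0.00577). LHCB2.2 had 3833 and 4270.3 FPKM in the eds1 line and 2254 and 2776 FPKM in the sid2 line (0.71 ± 0.15, edgeR adjusted p = 0.0321). The genes of the LHCB1 and LHCB2 groups are close copies, so reads may be shared. In the fits without 1 library 0 to 4 photosynthesis genes were called. The LHCB1.4 call was lost without sid2 line library 1 (0.89 to 1.08), and the LHCB2.2 call without eds1 line library 2 or either library of the sid2 line or WT (0.56 to 0.87). RBCS1A, a small subunit of Rubisco, had 8438 and 9712 FPKM in the eds1 line and 9203 and 8929.6 FPKM in the sid2 line, which did not pass (0.02 ± 0.14, edgeR adjusted p = 0.942) and was at -0.11 without eds1 line library 2.

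Other genes higher in the eds1 line had varied roles. KAT1 (AT5G46240), a potassium channel of guard cells, had 10.5 and 15.6 FPKM in the eds1 line, 4.66 and 5.07 FPKM in the sid2 line, 3.37 and 3.69 FPKM in the PBL19C3A line and 11.3 and 13.7 FPKM in WT (1.45 ± 0.21, edgeR adjusted p = 0.00762). That call was lost without sid2 line library 1 (1.105 to 1.722). ATML1, a factor of epidermal identity, had 30.3 and 36.3 FPKM in the eds1 line and 22.99 and 22.05 FPKM in the sid2 line, a call lost without eds1 line library 2, either sid2 line library or WT library 1 (0.42 to 0.73). KAT1 and ATML1 were the 2 called among 11 markers of guard cell, epidermis and phloem, beside 2.39% of all tested genes called higher. The summed level of the 11 markers was 433 and 543 FPKM in the eds1 line and 377 and 367 FPKM in the sid2 line. The part of cell type shares in the results was not tested. CEP3 (AT3G48350), a cysteine protease of the endoplasmic reticulum, had 13.7 and 13.6 FPKM in the eds1 line, 3.45 and 3.70 FPKM in the sid2 line and 5.25 and 5.68 FPKM in WT (1.95 ± 0.14, edgeR adjusted p = 0.000421), and it lies among the 50 tested genes on either side of EDS1. ADS1, a fatty acid desaturase, had 26.1 and 42.4 FPKM in the eds1 line, 5.269 and 10.01 FPKM in the sid2 line and 25.9 and 27.2 FPKM in WT (2.19 ± 0.34, edgeR adjusted p = 0.00879). The ADS1 call was lost with the eds1 and sid2 line libraries alone (edgeR adjusted p = 0.0527), and its log2 fold change was 1.77 to 2.72 over the fits without 1 library. ARR15, a response regulator of cytokinin signalling, had 8.57 and 4.09 FPKM in the eds1 line and 1.23 and 0.999 FPKM in the sid2 line, a call lost without either sid2 line library (1.91 to 2.92). CEP3 was above WT in both eds1 line libraries, whereas ADS1 and ARR15 overlapped WT. HSP17.6II, a small heat shock protein, had 11.0 and 11.8 FPKM in the eds1 line and 2.11 and 3.40 FPKM in the sid2 line, a call lost without any 1 of the eds1 line, sid2 line or WT libraries (1.75 to 2.44).

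In 3 further lists the edgeR test called 0 genes. The heat shock list does not hold HSP17.6II and AT1G53540, both called higher above, and 2 of its members were listed for the eds1 line alone. HSP23.6-MITO, also outside the list, was listed for the eds1 line alone at 2.48 and 1.43 FPKM, with 0.647 and 0.393 FPKM in WT. Of 13 abscisic acid and cold genes, 7 heat shock genes and 11 clock genes, 3 in each list had an unadjusted p under 0.05. Before adjustment, 4373 of all 17397 tested genes lay below that limit, so such members are frequent in any list. The DESeq2 calls over the whole comparison came to 2575 genes. DESeq2 called 3 of the abscisic acid and cold list (2 higher and 1 lower), 3 of the heat shock list (1 higher and 2 lower) and 1 clock gene, lower. COR15A, a cold-regulated chloroplast protein, had 30.2 and 84.4 FPKM in the eds1 line and 19.3 and 18.0 FPKM in the sid2 line, which did not pass in edgeR (1.65 ± 0.51, adjusted p = 0.0926). COR15A passed in DESeq2 (1.65, adjusted p = 0.0033). Its log2 fold change in edgeR was 2.22 without eds1 line library 1 and 0.69 without eds1 line library 2. The 8 reference genes had a median log2 fold change of 0.01, with 0 called by edgeR, 1 at an unadjusted p under 0.05 and 1 called by DESeq2. PP2AA3, one of these, had 32.7 and 29.9 FPKM in the eds1 line and 33.8 and 32.3 FPKM in the sid2 line. The rosette label was read against tissue markers. Of 6 root markers, SHR alone was listed, at 4.64 and 4.07 FPKM in the eds1 line and 3.37 and 3.11 FPKM in the sid2 line. Of the 7 apex and flower markers, AP1, LFY, AG and FT were in no table used here. The other 3, STM, SEP3 and SOC1, were tested and not called. Their summed level was 44.4 and 32.7 FPKM in the eds1 line and 39.3 and 48.9 FPKM in the sid2 line.

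Genes listed for the sid2 line and not for the eds1 line numbered 594, 88 with a mean of at least 10 FPKM in the sid2 line, and 485 were also listed for the PBL19C3A line. Of these 594 genes 54 had 0 counts in both WT libraries. Among all 28 lists, 53 members were listed for the sid2 line and not for the eds1 line, and 2 the other way round. DIN2, a beta-glucosidase, had 129 and 276 FPKM in the sid2 line, 218 and 69.8 FPKM in the PBL19C3A line and 0.0961 and 0.190 FPKM in WT. AIG1, a GTPase induced by avirulent bacteria, had 152 and 238 FPKM in the sid2 line, 261 and 233 FPKM in the PBL19C3A line and 0.515 and 2.15 FPKM in WT. AOX1D, an alternative oxidase, had 55.7 and 75.7 FPKM in the sid2 line and 0.102 and 0.479 FPKM in WT. No eds1 line value exists for these genes in the tables used here, and the listing rule places them under 1 CPM in at least 1 of its libraries. The 2 list members found for the eds1 line alone were small heat shock proteins, HSP18.2 at 3.19 and 2.13 FPKM and HSP21 at 2.57 and 1.46 FPKM, with 1.12 and 1.19 FPKM and 0.303 and 0.192 FPKM in WT.

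**Figure D3:**
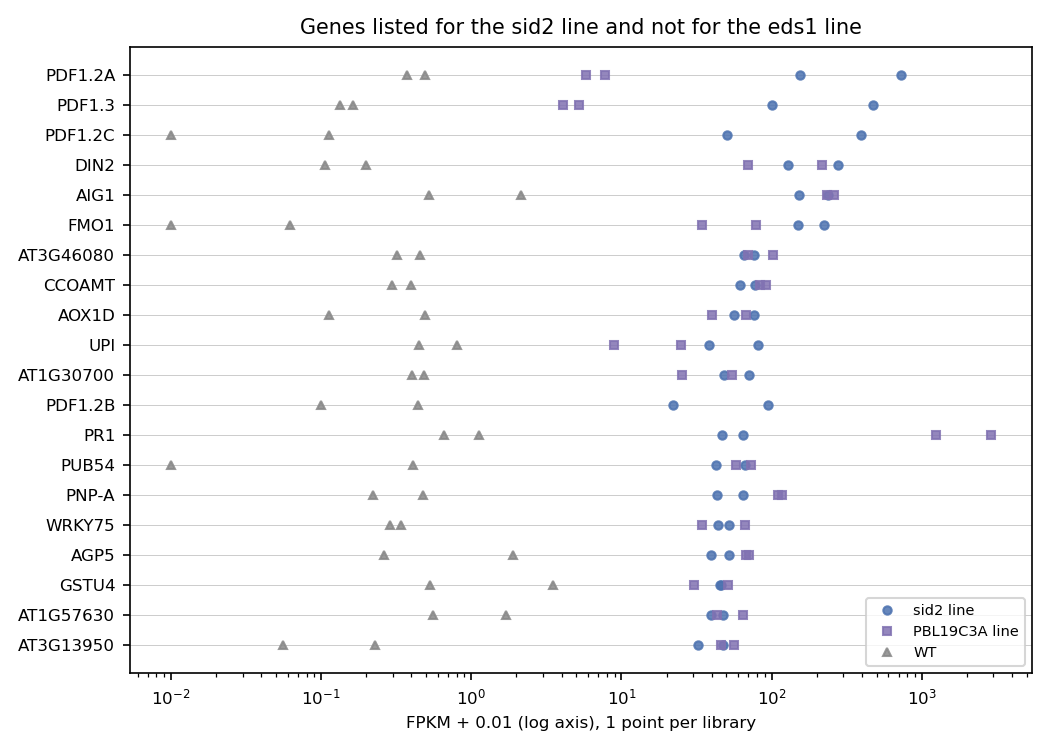
FPKM plus 0.01 on a log axis, for the 20 genes with the highest mean in the sid2 line among those not listed for the eds1 line, with 1 point per library of the sid2 line, the PBL19C3A line and WT. The sid2 line points lie above the PBL19C3A points for PDF1.2A, at 726 and 155 FPKM in the sid2 line, and below them for PR1, at 46.9 and 64.2 FPKM in the sid2 line.

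On chromosome 3, genes with no reads in the eds1 line lay in a stretch next to EDS1. All 9 named loci with 0 counts in both eds1 line libraries and at least 1 CPM in both WT libraries lay on chromosome 3, between AT3G30720 and AT3G47965. Another 3 loci outside the annotation, with no position in the files, had the same pattern. AT3G47680, annotated as a DNA binding protein, had 0 counts in both eds1 line libraries, 14.6 and 14.9 FPKM in the sid2 line, 15.9 and 16.2 FPKM in the PBL19C3A line and 14.0 and 15.9 FPKM in WT. With a floor of 3 counts per library, it was at least 401-fold lower in the eds1 line than in the sid2 line. HSD2 (AT3G47350), a hydroxysteroid dehydrogenase, had 0 counts in the eds1 line and 17.5 and 17.2 FPKM in the sid2 line (at least 286-fold lower), with 18.3 and 14.6 FPKM in WT. AT3G43740, a leucine-rich repeat protein, had 0 counts in the eds1 line and 17.6 FPKM in both sid2 line libraries, with 18.3 and 17.7 FPKM in WT. QQS (AT3G30720), a regulator of starch content, had 0 counts in the eds1 line and 19.4 and 24.0 FPKM in the sid2 line (at least 209.8-fold lower), with 2.15 and 3.87 FPKM in the PBL19C3A line and 5.62 and 3.63 FPKM in WT. For the first 3 of these genes the other genotypes had like levels, and QQS was highest in the sid2 line. Of 253 tested genes in the stretch, 4 were called higher and 52 lower (22.1% called). These 9 loci set the ends of the stretch and are among the lower calls, so this share is a description. Without them 4 of 244 genes were called higher and 43 lower (19.3%), beside 9.27% of 16834 other named loci. Conversely, AT3G44070, a glycosyl hydrolase in the stretch, was listed for the eds1 line alone, at 14.9 and 14.7 FPKM, with 0 FPKM in both WT libraries. The nitrilase gene NIT2 (AT3G44300), in the stretch beside close copies of it, had 0.705 and 0.890 FPKM in the eds1 line, 367 and 568 FPKM in the sid2 line, 559 and 392 FPKM in the PBL19C3A line and 2.40 and 2.59 FPKM in WT (-9.16 ± 0.35, edgeR adjusted p = 7.22e-05). Among the 100 tested genes nearest to each locus, 15 were called around EDS1 (3 higher and 12 lower), 15 around ICS1 (5 higher and 10 lower) and 10 around PBL19 (1 higher and 9 lower). Without the stretch 1580 genes were called, 411 higher and 1169 lower. The labels name no eds1 allele, and the EDS1 mutation and any other difference carried in this stretch cannot be told apart.

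**Figure D4:**
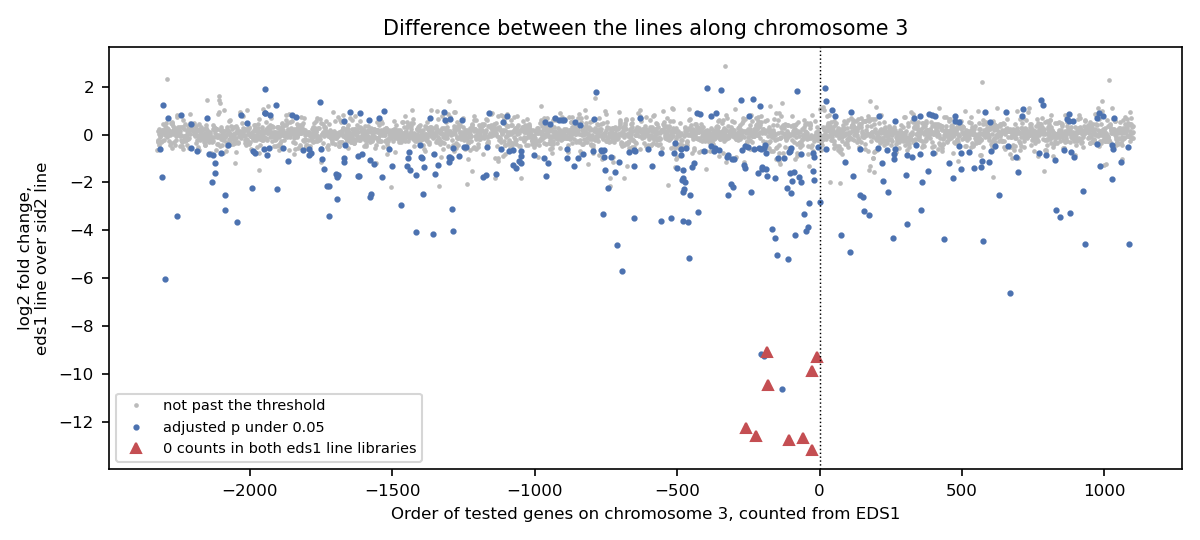
Fitted log2 fold change, eds1 line over sid2 line, of tested genes in their order on chromosome 3, counted from EDS1 at the dotted line. Red triangles mark genes with 0 counts in both eds1 line libraries, whose height depends on the fit's prior count and is no estimate of size, and all 9 lie in a stretch of 253 tested genes on the low-numbered side of EDS1.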

How the data were processed

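Per the file headers, the authors deposited raw counts, as whole numbers for each gene in each library, together with FPKM. HISAT2 2.0.4 and TAIR10 are named in the submitters' processing notes, and the counting tool and its strand setting are not given in the sources used here. Each of 3 count tables joins WT with 1 line and lists only genes at 1 CPM or more in at least 2 of its 4 libraries. The tables were joined by gene identifier. The test was that of edgeR 4.0.16, run in R 4.3.3 (quasi-likelihood test, TMM scaling, filterByExpr, Benjamini-Hochberg adjustment over 17397 genes, threshold 0.05), with genotype as the only term. All 8 libraries entered the fit of 17327 genes, and 70 genes not listed for the PBL19C3A line were fitted with 6 libraries. The low-count filter removed 0 genes. Standard errors were taken from the fold change and its F statistic. The biological coefficient of variation was 18.1%. On simulated counts for this comparison over 17327 genes, 56% of 100 genes changed 2-fold and 100% of 100 genes changed 4-fold were recovered, with 8 false calls. The simulation gave all genes a common spread and changed only genes averaging more than 100 counts. Recovery in these data may therefore be lower.

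Total counts per library ranged from 37373977 in the PBL19C3A line to 51202472 in the sid2 line, and intervals and floors cover counting error only. Names, neighbour order and sequences come from the RefSeq annotation of TAIR10.1, which matched 17087 of the tested genes, and coordinates are those of TAIR10.1. The naming rule takes the genotype genes and up to 4 called members per list with the largest change. It adds the 8 highest and 8 lowest changes among called genes without overlap that reach 10 FPKM in either line. It also takes the 8 highest genes listed for 1 line only, untested list members, and up to 4 called neighbours of EDS1 and of ICS1. Not every gene that the rule picks is printed, and AT5G02540, SAUR22, MKK5 and GSTF7 are among those left out. CBP60g, NRG1.2, WRKY70, FLS2, WRKY33, WRKY53, XTH24, COR15A, RBCS1A, PP2AA3, SAG29 and SHR were named after their values were seen. The comparison and the 28 gene lists were chosen with earlier results of these data known. The alternatives were DESeq2 1.42.0, other scaling and filters, only these 2 lines, a replicate block, leaving out each library, and leaving out the chromosome 3 stretch, the last chosen after seeing the data.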

Additional observations from a re-analysis of the deposited data

Results flagged for a closer look

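These genes are listed for 1 of the 2 lines only, so they stand outside the test, and their mean there was above that of WT. Means over 2 libraries are given, and no difference was tested. In the eds1 line they were newGene_345 at 22.4 FPKM, AT3G44070 at 14.8 FPKM, MRD1 at 13.8 FPKM, AT3G44120 at 9.12 FPKM and newGene_344 at 6.36 FPKM. AT3G45440 had 5.79 FPKM, AT2G20835 3.67 FPKM (5.99 and 1.35 FPKM in the eds1 line, against 1.99 and 2.96 FPKM in WT, which overlap) and AT3G46500 3.36 FPKM in the eds1 line. The genes AT3G44070, AT3G44120, AT3G45440 and AT3G46500 lie in the chromosome 3 stretch. In the sid2 line they were the defensins PDF1.2A at 440.5 FPKM, PDF1.3 at 287 FPKM and PDF1.2C at 221 FPKM, the beta-glucosidase DIN2 at 202 FPKM, the GTPase AIG1 at 195 FPKM and FMO1 at 186 FPKM. AT3G46080, a zinc finger protein, had 70.6 FPKM and CCOAMT, a methyltransferase of lignin precursors, 69.5 FPKM in the sid2 line.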

How the results depend on the processing

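The edgeR test called 1636 genes, 415 higher and 1221 lower in the eds1 line. DESeq2 called 2575, 852 higher and 1723 lower. With the eds1 and sid2 line libraries alone it was 848, 129 higher and 719 lower. With the replicate number as a block it was 2471, 845 higher and 1626 lower. Deviations of same-numbered libraries correlated at 0.35 between these lines and at 0.144 to 0.379 over all 6 pairs of genotypes. The labels do not say that a number marks a shared batch, and each genotype has 2 numbers, so the fit without the block was kept and genes it does not call may pass with it. Over the fits that leave out 1 library, the counts ranged from 617 to 1398 called, 62 to 362 higher and 540 to 1129 lower. Without the chromosome 3 stretch, an alternative chosen after seeing the data, 1580 were called. RLE scaling, no filter, a stricter filter and genes of all 3 tables moved the count by less than 1.5 times.

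The naming rule picks mostly called genes, and of its 92 calls 37 were lost without some single library while 55 were kept in all 8 such fits. With these 2 lines alone 17 calls were lost, and with RLE scaling PEN3 was lost (adjusted p = 0.05129 in edgeR). The 93 tested genes of the rule kept their direction in these fits. Of the 12 genes named after their values were seen, 4 changed direction without a single library: WRKY33 (-2.24 to 0.39), WRKY53 (-3.65 to 1.56), FLS2 (-0.10 to 0.98) and RBCS1A (-0.11 to 0.14). With the replicate block WRKY53 was at -0.0729 and WRKY70 passed (adjusted p = 0.0449 in edgeR). The cause of these losses was not tested. With 2 libraries per line, 56% of 2-fold changes were recovered in the simulation, and recovery in these data may be lower.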
